A study of Mus musculus with 12 samples.

Results

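Heat shock proteins and chaperonins are the molecular chaperones that fold, refold and hold the proteins of a cell. They were followed here in CCE mouse embryonic stem cells while a short hairpin RNA acted against the long noncoding RNA TUNA. The members are the rows of the RNA-seq table whose gene symbol starts with Hsp90, Hspa, Hspb, Hspd, Hspe, Hsph, Dnaja, Dnajb, Dnajc or Cct, plus Tcp1 and the heat shock transcription factors Hsf1 and Hsf2; Hspbap1 was left out. The rule gave 101 of 37477 rows, of which 85 are genes and 16 are named as pseudogenes or related-sequence copies. Of these, 55 rows (53 genes and 2 copies) held enough reads to be tested, 26 were above 0 but too low, and 20 were listed at 0 in every library. The libraries fall into 4 groups of 3: TUNA hairpin at day 2, at day 4 and at day 6 after transduction, and control hairpin at day 2. All cells grew with fetal serum and LIF, which keeps mouse embryonic stem cells undifferentiated, received a pLKO.1-puro lentivirus and were kept in puromycin, so both arms are selected pools rather than clones. No control of day 4 or day 6 was used here, so in those comparisons the hairpin and the days since transduction cannot be told apart. Whether the replicates were separate cultures is not stated in the labels, so each p-value reflects library-to-library spread that could be technical.

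Chaperones work as linked machines. HSP70 proteins bind exposed stretches of unfolded chains in a cycle driven by ATP; J-domain proteins (the DNAJA, DNAJB and DNAJC families) deliver the chains and start ATP hydrolysis, and HSP110 proteins release the ADP so that the cycle can go on. HSP90 takes over partly folded clients such as kinases and steroid receptors with the help of co-chaperones. The chaperonins are barrels that enclose a protein while it folds: HSP60 with its lid HSP10 in mitochondria, and in the cytosol the CCT complex, best known for folding actin and tubulin. HSF1 is the factor that switches on heat shock genes when misfolded proteins accumulate.

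Values are normalized counts, and changes are log2 differences of the value plus 1, with their standard errors. Each change was tested with limma across all 8739 rows past the low-value filter, with Benjamini-Hochberg adjustment and a threshold of 0.05. Libraries held between 3522469 and 5652962 recovered reads, of which 60.4% to 76.9% lay in 3 rows (Rnu3a, Tex14 and LOC100503663), and the members held 19951 to 36777 reads. The row that stands for TUNA, 2810011L19Rik, was listed at 0 in 12 of 12 libraries, so the knockdown could not be checked in these values. All 9 embryonic stem cell markers were above 0 in every group. Their sum lay between 2544 and 2719 normalized counts at day 2, between 2436 and 2636 at day 4 and between 1788 and 2226 at day 6, against 2824 to 3072 in control cells. Of 8 fibroblast markers all but Acta2 and Tagln were at 0 in each group, while the sum of the list lay between 7.78 and 31.1 at day 2, between 15.7 and 26.0 at day 4 and between 242 and 329 at day 6, against 5.51 to 7.55 in control cells. The sum of 6 endoderm markers lay between 2.27 and 7.84 at day 2, between 12.2 and 17.1 at day 4 and at most at 6.21 at day 6, against 2.21 to 8.63 in control cells, with 3 of the 6 at 0 in every day 4 library. That of 4 neural markers lay between 15.7 and 22.4 at day 2, between 20.7 and 25.9 at day 4 and between 41.7 and 54.0 at day 6, against 21.1 to 35.9 in control cells. The sum of 3 mesoderm markers was at most 9.48 in any library. Markers of a list did not all move together. Stem cell markers with day 4 means above control cells were Sox2, Klf4, Tdgf1 and Dppa5a, and the others were below. By day 6 all stem cell markers but Utf1 were below. Of the neural markers, Nes, Sox1 and Pax6 had day 6 means above control cells (28.4 against 4.64 for Nes). That of Tubb3 was below (8.96 against 16.3). The part of such shifts in the values below was not tested.

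Among the comparisons with control cells, day 4 held the most calls, both for the members and for all rows. Against control cells, 10 of 55 tested members were called at day 4 (18.2%), where 14.7% of all tested rows were called. Of these, 3 rose (Hspa4l, Dnajb4 and Hspa9), where 6.99% of all rows did. Falls were called for 7 (Hsph1, Hspd1, Hsp90ab1, Dnaja3, Dnajb12, Dnajc11 and Dnajc18), where 7.76% of all rows fell. Hspa4l and Dnajb4 had 0 control libraries at 10 or more and were tested only through hairpin libraries, so their rises are descriptions. The median change of the members was -0.16, against -0.01 for all rows. At day 2, the comparison matched in time, limma called 0 of 55 members and 0.961% of all rows (0.412% higher and 0.549% lower). An unadjusted p under 0.05 was reached by 5 of the 55 members and by 1072 of all 8739 rows. The median change was -0.06 against 0.01. At day 6, 3 members (5.45%) were called against control cells, where 6.21% of all rows were (3.07% higher and 3.15% lower): Hspa4l rose, and Dnajc6 and Dnaja3 fell. The median change was -0.06 against -0.01. Day 4 had the lowest group mean in 26 of 55 members (47.3%), where it was lowest in 29.7% of all rows.

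The steps between hairpin days share their libraries with those comparisons and so are not independent of them. Between day 4 and day 2, 3 members were called, all lower at day 4 (Dnajc6, Dnajc18 and Hspd1), where 7.66% of all rows were called, 3.27% higher and 4.38% lower. Between day 6 and day 4, 5 members were called, where 5.58% of all rows were (2.64% higher and 2.94% lower): Hsph1, Dnajc11, Dnajc18 and Hspd1 were higher at day 6 and Dnajc6 was lower. In all, 11 members made 21 calls, and 44 of 55 members were called in no comparison. The share of all rows called in at least 1 comparison was not counted, so these totals do not set the members apart. RNA levels were measured in bulk, and fewer cells with a transcript cannot be told apart from less of it per cell.

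**Figure D1:**
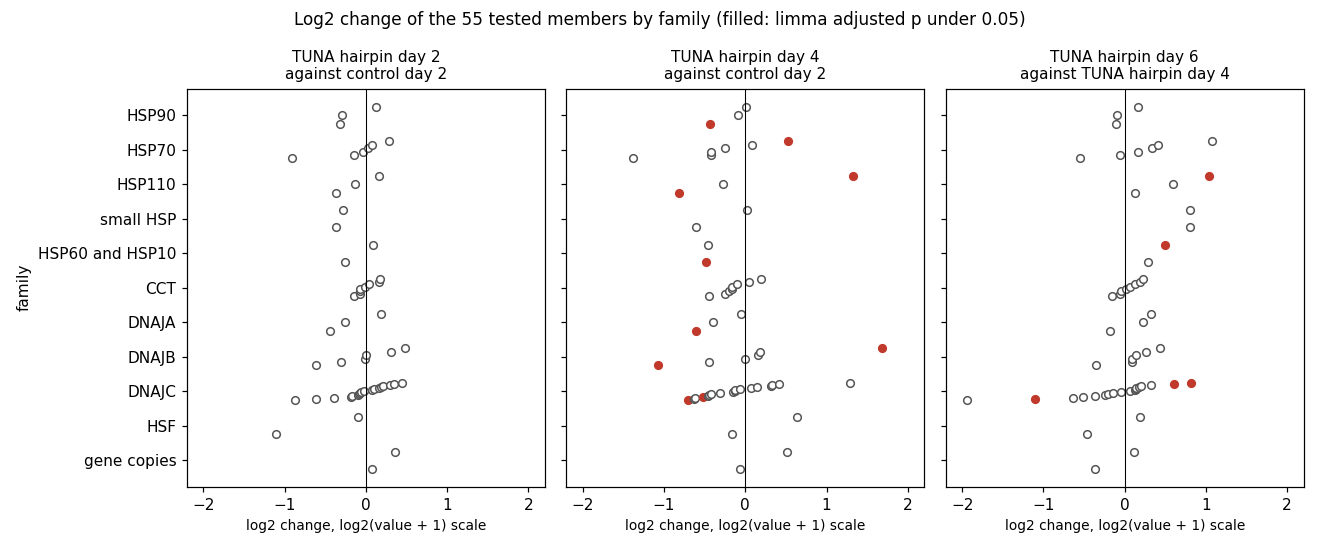
Log2 change of each of the 55 tested members, by family, at day 2 and day 4 of the TUNA hairpin against control cells and at day 6 against day 4; filled points passed the limma threshold. Calls are absent at day 2, number 10 at day 4 and number 5 between day 6 and day 4, and no CCT subunit is among them.

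Of the 3 HSP110 genes, Hsph1 fell and Hspa4l rose at day 4. Hsph1 encodes HSP105, a nucleotide exchange factor for HSP70 that rises in heat shock. It had 104, 88.5 and 90.7 normalized counts in TUNA hairpin cells at day 2, 62.4, 73.8 and 70.4 at day 4 and 103, 142 and 195 at day 6, against 135, 122 and 109 in control cells. All day 4 libraries lay below all others, and the day 6 libraries spread widest, from 103 to 195. Hsph1 fell at day 4 against control cells (log2 change -0.82 ± 0.20, adjusted p 0.01), and was higher at day 6 than at day 4 (log2 change 1.04 ± 0.20, adjusted p 0.00438). Both calls were kept when each of their libraries was dropped in turn, with highest adjusted p values of 0.0448 at day 4 against control cells and 0.0184 at day 6 against day 4. At day 2 (-0.37, adjusted p 0.485) and day 6 (0.22, adjusted p 0.603) the change against control cells did not pass. Hspa4l, a relative known as APG-1 that is abundant in testis, was near the low end of what was tested. It had 3.35, 6.79 and 2.85 normalized counts in TUNA hairpin cells at day 2, 9.07, 11.2 and 10.8 at day 4 and 20.2, 14.2 and 14.6 at day 6, against 4.91, 3.61 and 2.40 in control cells. The day 6 libraries were the highest, the day 4 libraries lay between, and the day 2 and control libraries overlapped. Hspa4l rose at day 4 (log2 change 1.32 ± 0.42, adjusted p 0.042) and at day 6 (log2 change 1.92 ± 0.42, adjusted p 0.00974). It was tested only because day 4 and day 6 libraries passed 10 normalized counts. The day 4 call was lost when any 1 of its 6 libraries was dropped (highest adjusted p 0.126), and the day 6 call was lost without day 6 replicate 1 (adjusted p 0.065). Hspa4, the third of the family, averaged 493 ± 20.4 normalized counts at day 2, 449 ± 63.9 at day 4 and 486 ± 31.8 at day 6, against 541 ± 27.1 in control cells (SD, n = 3 per group), with no call in any comparison.

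**Figure D2:**
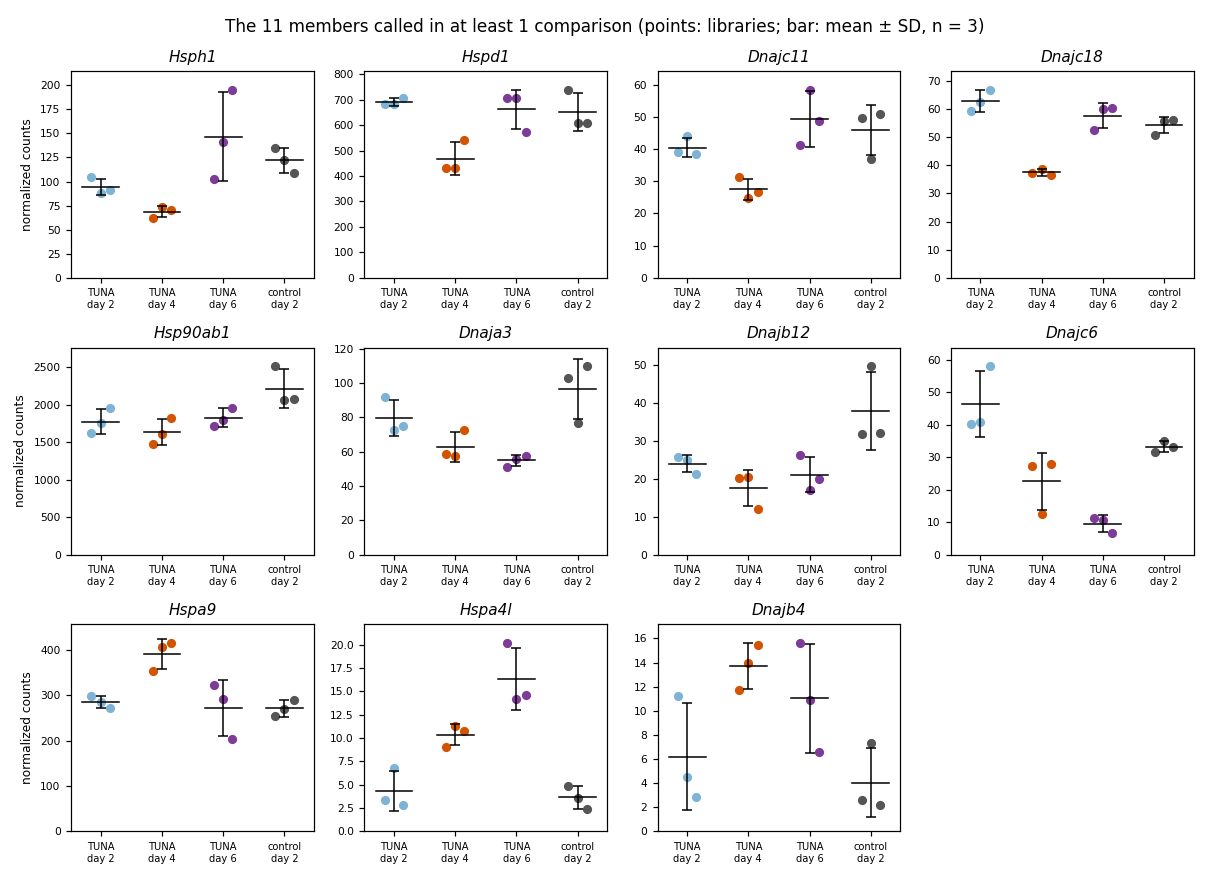
Normalized counts of the members called in at least 1 comparison, in each library (points) with the mean and SD of 3 libraries, for TUNA hairpin at day 2, day 4 and day 6 and for control hairpin at day 2. Hsph1, Hspd1, Dnajc11 and Dnajc18 are lowest at day 4, Dnajc6 is lowest at day 6, and Hspa4l is highest at day 6.

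The HSP60 subunit of the mitochondrial chaperonin was lowest at day 4. Hspd1, which encodes HSP60, had 682, 682 and 708 normalized counts in TUNA hairpin cells at day 2, 432, 429.8 and 543 at day 4 and 706, 707 and 574 at day 6, against 739, 609 and 609.8 in control cells. Each day 4 library was below every library of the other groups. Hspd1 fell at day 4 against control cells (log2 change -0.48 ± 0.14, adjusted p 0.0306) and against day 2 (log2 change -0.57 ± 0.14, adjusted p 0.0206), and was higher at day 6 than at day 4 (log2 change 0.50 ± 0.14, adjusted p 0.0481). The call against control cells was lost without day 4 replicate 1 or 2 or control replicate 1 or 2 (highest adjusted p 0.13), that against day 2 was lost without day 4 replicate 1 or 2 or any 1 day 2 replicate (highest adjusted p 0.0985), and that of day 6 against day 4 was lost without day 6 replicate 1 or 2 or day 4 replicate 1 or 2 (highest adjusted p 0.173). Hspe1, which encodes the HSP10 lid, had 72.0, 95.8 and 81.0 normalized counts in TUNA hairpin cells at day 2, 71.1, 74.9 and 67.2 at day 4 and 87.3, 96.0 and 79.1 at day 6, against 97.5, 80.1 and 122 in control cells. Its day 4 values were below all control values, but the change did not pass (log2 change -0.46 ± 0.18, adjusted p 0.0919). Hspa9 encodes mortalin, the HSP70 of mitochondria, which pulls imported chains inward. It had 298, 286 and 272 normalized counts in TUNA hairpin cells at day 2, 354, 407 and 415 at day 4 and 323, 291 and 203 at day 6, against 254, 269.8 and 290.0 in control cells, and so went the other way: all day 4 values were above all others. Hspa9 rose at day 4 (log2 change 0.53 ± 0.16, adjusted p 0.0336), and this call was lost without day 4 replicate 2 or 3 or any 1 control replicate (highest adjusted p 0.109). Between day 6 and day 4 its change of -0.55 did not pass (adjusted p 0.0531), but did without day 6 replicate 1 (0.0452). With every library kept, it passed with a filter of 20 normalized counts (0.047) and with 10 added in place of 1 (0.0491). Its copy Hspa9-ps1 had 182, 151 and 192 normalized counts in TUNA hairpin cells at day 2, 173, 163 and 261 at day 4 and 146, 128 and 182 at day 6, against 135, 136 and 136 in control cells (log2 change 0.52 ± 0.18, adjusted p 0.0678 at day 4). That change passed with upper quartile scaling (0.0488) and with a replicate block (0.0438). The sources used here do not give how reads were shared between a gene and its copy, so both rows are uncertain.

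Letters of the heat shock element, the sequence that HSF1 and HSF2 bind, were looked for in the promoters of the members, since Hsph1 and Hspd1 were both lowest at day 4. A 3-unit element, GAANNTTCNNGAA on either strand, was found in the 300 bases around the start (250 before it and 50 after) of 4 of the 69 members with a promoter entry (5.8%), where 0.662% of 27025 genes hold it: Hsph1, Hspd1, Hspe1 and Dnajb6. A 2-unit element, TTCNNGAA or GAANNTTC, which the 3-unit element contains, was in 20 of 69 members (29%) and in 17% of all genes. Hspd1 and Hspe1, which share a stretch, are counted separately. There was no entry for 13 tested members, among them Hsp90aa1, Hsp90ab1, Hspa8, Hspa9 and Hsf1, so their promoters were not searched for any element. The sequences are from RefSeq on GRCm38.p6, with the element in capitals. Hspd1 and Hspe1 stand head to head, so 1 stretch serves both: chr1:55087898-55088197 on the plus strand, read toward Hspe1, holds 2 overlapping matches before the Hspe1 start. The Hsph1 window is chr5:149636287-149636586 on the minus strand and holds its match after the start. Shown of the Dnajb6 window is chr5:29735812-29735904 on the plus strand.
Hspe1: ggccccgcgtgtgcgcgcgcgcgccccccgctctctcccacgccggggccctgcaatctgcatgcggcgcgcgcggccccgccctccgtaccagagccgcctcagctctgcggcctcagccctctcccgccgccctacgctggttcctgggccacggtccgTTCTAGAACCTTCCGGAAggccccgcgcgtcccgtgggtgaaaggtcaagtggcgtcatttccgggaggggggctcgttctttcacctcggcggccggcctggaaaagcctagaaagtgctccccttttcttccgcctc
Hsph1: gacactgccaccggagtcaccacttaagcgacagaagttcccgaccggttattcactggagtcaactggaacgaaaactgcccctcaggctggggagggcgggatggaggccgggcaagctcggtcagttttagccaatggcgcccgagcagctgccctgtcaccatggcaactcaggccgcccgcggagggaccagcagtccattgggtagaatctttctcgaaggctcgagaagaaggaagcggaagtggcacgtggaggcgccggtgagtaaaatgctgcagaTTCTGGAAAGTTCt
Dnajb6: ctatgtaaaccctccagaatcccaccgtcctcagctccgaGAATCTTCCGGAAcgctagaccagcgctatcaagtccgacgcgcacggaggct
Of the 4 genes with these letters, Hsph1 and Hspd1 fell at day 4, Hspe1 had the change given above, and Dnajb6, which keeps aggregation-prone proteins apart, had a change of 0.18 (adjusted p 0.467). The low day 4 levels of Hsph1 and Hspd1 prompted the search, so their place among the 4 is no test of a link. A match describes letters in a window, and no binding was measured.

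Hsp90aa1 was the most abundant member. Per kilobase of the longest annotated transcript, it stood in control cells at 3250 normalized counts, followed by Hspa8 at 1989, Hsp90ab1 at 879, Tcp1 at 473 and Cct5 at 321. Hsp90ab1, the constitutive cytosolic HSP90, had 1616, 1749 and 1957 normalized counts in TUNA hairpin cells at day 2, 1473, 1607 and 1826 at day 4 and 1717, 1797 and 1960.4 at day 6, against 2509, 2066 and 2069.7 in control cells. All 9 hairpin libraries were below every control library. Hsp90ab1 fell at day 4 (log2 change -0.44 ± 0.14, adjusted p 0.0494). The Hsp90ab1 call was lost without day 4 replicate 1 or 2 or any 1 control replicate (highest adjusted p 0.184). The changes at day 2 (-0.32, adjusted p 0.386) and day 6 (-0.28, adjusted p 0.31) did not pass. Hsp90aa1, the inducible form, had 10402, 11024 and 12687 normalized counts in TUNA hairpin cells at day 2, 6841, 9444 and 14340.4 at day 4 and 8933, 6821 and 12399 at day 6, against 13977, 9549 and 8459 in control cells, and all groups overlapped. Its changes against control cells were 0.12, -0.10 and -0.19 at days 2, 4 and 6, with no call. Within the day 4, day 6 and control groups the order of its libraries was the order of their share of reads in the 3 dominant rows, and within day 2 it was not; the part of this in the spread was not tested. Hsp90b1, which encodes the endoplasmic reticulum form GRP94, averaged 273 ± 9.55 normalized counts at day 2, 341 ± 54.7 at day 4 and 315 ± 9.21 at day 6, against 339 ± 58.4 in control cells, with no call.

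Cytosolic HSP70 genes did not pass the test. Hspa8 encodes HSC70, the constitutive form that serves new chains and uncoats clathrin vesicles. It had 4728, 4290.1 and 4952 normalized counts in TUNA hairpin cells at day 2, 3415, 3543 and 3729 at day 4 and 4495, 4797 and 4172 at day 6, against 4924, 4627 and 4731 in control cells. Each day 4 library was below every other library, but the change against control cells stayed above the threshold (log2 change -0.42 ± 0.14, adjusted p 0.0575; 0.0449 with a filter of 20 normalized counts). Hspa8 carries small nucleolar RNA genes in its introns, as do Hspa9, Tcp1 and Cct6a among the tested members; whether their reads were counted in these rows was not tested. The heat-inducible Hspa1b averaged 6.21 ± 3.1 normalized counts at day 2, 4.09 ± 1.87 at day 4 and 10.1 ± 6.16 at day 6, against 12.1 ± 4.92 in control cells (log2 change -1.38 ± 0.52, adjusted p 0.083 at day 4), and its near-identical neighbour Hspa1a, between 0 and 5.18 in the 12 libraries, was too low to test. Reads of the pair cannot be assigned with certainty. Hspa14, which works at the ribosome, ranged only from a change of 0.02 at day 6 to 0.29 at day 2 against control cells.

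Among members of the endoplasmic reticulum, 2 J proteins were called. Hspa5 encodes BiP, the HSP70 of this compartment. It had 946, 1015 and 1067 normalized counts in TUNA hairpin cells at day 2, 685, 850.1 and 999 at day 4 and 992, 875 and 946 at day 6, against 1287, 1005 and 1072 in control cells (log2 change -0.42 ± 0.15, adjusted p 0.073 at day 4). Day 4 replicate 3 was the highest of its group, and without it the adjusted p was 0.023. Dnajb12, which sits in the endoplasmic reticulum membrane and helps clear misfolded membrane proteins, had 25.8, 24.9 and 21.4 normalized counts in TUNA hairpin cells at day 2, 20.2, 20.4 and 12.1 at day 4 and 26.3, 17.1 and 19.9 at day 6, against 31.8, 49.7 and 32.0 in control cells. Every day 4 library was below every control library, and Dnajb12 fell (log2 change -1.07 ± 0.27, adjusted p 0.0135). The Dnajb12 call was lost without day 4 replicate 3 or control replicate 2 (highest adjusted p 0.0776). Dnajc18, related to Dnajb12, had 59.3, 62.4 and 67.0 normalized counts in TUNA hairpin cells at day 2, 37.1, 38.7 and 36.6 at day 4 and 52.5, 60.1 and 60.4 at day 6, against 50.9, 55.7 and 56.2 in control cells. The 3 day 4 libraries lay close together and below all others. Dnajc18 fell at day 4 against control cells (log2 change -0.52 ± 0.17, adjusted p 0.0438) and against day 2 (log2 change -0.73 ± 0.17, adjusted p 0.0128), and was higher at day 6 than at day 4 (log2 change 0.61 ± 0.17, adjusted p 0.0424). The calls against control cells and of day 6 against day 4 were both lost when any 1 library was dropped (highest adjusted p 0.112 and 0.102), and that against day 2 was lost without day 2 replicate 3 (adjusted p 0.0594). The other tested members of this compartment were not called. At day 4 against control cells the change was -0.45 for Dnajb11, -0.15 for Dnajc3, 0.15 for Dnajc10 and -0.24 for Hspa13. It was -0.63 for Dnajc14 (adjusted p 0.115), -0.13 for Dnajc1 and 0.01 for Hsp90b1. Dnajc3 at day 6 against control cells changed by -0.52 (adjusted p 0.25, and 0.0318 without day 6 replicate 3).

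The endoplasmic reticulum stress element, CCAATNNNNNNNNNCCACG on either strand, was found in the promoters of 3 of 69 members (4.35%), namely Hspa5, Hsp90b1 and Dnajc3, where 0.137% of all genes hold it. It is bound by factors of the unfolded protein response, which raises chaperones when this compartment is overloaded. The stretches shown, with the element in capitals, are chr2:34771985-34772083 on the plus strand for Hspa5 and chr10:86705493-86705694 on the minus strand for Hsp90b1, which holds 2 matches.
Hspa5: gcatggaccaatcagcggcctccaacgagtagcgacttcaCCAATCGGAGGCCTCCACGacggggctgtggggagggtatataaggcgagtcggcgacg
Hsp90b1: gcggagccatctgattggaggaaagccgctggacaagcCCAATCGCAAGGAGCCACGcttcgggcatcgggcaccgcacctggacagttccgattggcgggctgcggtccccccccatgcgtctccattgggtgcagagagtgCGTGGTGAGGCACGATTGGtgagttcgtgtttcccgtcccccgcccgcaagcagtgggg
None of these 3 genes was called; at day 4 against control cells Hspa5 changed by -0.42, Hsp90b1 by 0.01 and Dnajc3 by -0.15.

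Both falls at day 6 were of J proteins, Dnajc6 and Dnaja3. Dnajc6 encodes auxilin, which recruits HSC70 to strip clathrin from vesicles and is best known from neurons. It had 40.1, 40.9 and 57.9 normalized counts in TUNA hairpin cells at day 2, 27.3, 12.5 and 27.9 at day 4 and 11.3, 10.8 and 6.64 at day 6, against 31.5, 35.0 and 33.1 in control cells. The day 6 libraries were all below every other library, and the day 4 libraries were below the day 2 and control libraries. Dnajc6 fell at day 6 (log2 change -1.73 ± 0.30, adjusted p 0.00209). The Dnajc6 call at day 6 was kept when each of its 6 libraries was dropped in turn (highest adjusted p 0.0131). It was also lower at day 4 than at day 2 (log2 change -1.07 ± 0.30, adjusted p 0.039), and lower at day 6 than at day 4 (log2 change -1.11 ± 0.30, adjusted p 0.0399). The step from day 2 was lost without day 4 replicate 2 or any 1 day 2 replicate (highest adjusted p 0.18), and the later step was lost without any 1 day 6 replicate or day 4 replicate 1 or 3 (highest adjusted p 0.123). Against control cells the day 4 change did not pass (log2 change -0.62 ± 0.30, adjusted p 0.181).

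Dnaja3, a mitochondrial partner of mortalin, had 91.6, 72.4 and 75.1 normalized counts in TUNA hairpin cells at day 2, 58.4, 57.3 and 72.6 at day 4 and 51.3, 55.8 and 57.6 at day 6, against 103, 76.4 and 109.6 in control cells. Day 4 and day 6 libraries all lay below the control libraries. Dnaja3 fell at day 4 (log2 change -0.60 ± 0.18, adjusted p 0.0347) and at day 6 (log2 change -0.78 ± 0.18, adjusted p 0.0143). The day 4 call was lost without day 4 replicate 1 or 2 or control replicate 1 or 3 (highest adjusted p 0.132), and the day 6 call was lost without day 6 replicate 1 or control replicate 1 or 3 (highest adjusted p 0.0732). Dnajc11, a mitochondrial protein tied to the shape of the inner membrane, had 39.1, 43.9 and 38.4 normalized counts in TUNA hairpin cells at day 2, 31.2, 24.9 and 26.6 at day 4 and 41.2, 58.5 and 48.7 at day 6, against 49.8, 36.8 and 51.0 in control cells. All day 4 libraries were below all others. Dnajc11 fell at day 4 (log2 change -0.71 ± 0.21, adjusted p 0.0291) and was higher at day 6 than at day 4 (log2 change 0.81 ± 0.21, adjusted p 0.0282). The first call was lost without day 4 replicate 2 or 3 or control replicate 1 or 3 (highest adjusted p 0.103), and the second was lost without day 6 replicate 2 or 3 or day 4 replicate 2 or 3 (highest adjusted p 0.107). Dnajb4, a cytosolic J protein, was low: it had 11.2, 4.54 and 2.85 normalized counts in TUNA hairpin cells at day 2, 11.7, 14.0 and 15.5 at day 4 and 15.6, 10.9 and 6.59 at day 6, against 2.59, 7.36 and 2.21 in control cells. It rose at day 4 (log2 change 1.68 ± 0.51, adjusted p 0.0336). The Dnajb4 call was lost without any 1 day 4 replicate or control replicate 1 or 3 (highest adjusted p 0.109). Libraries at 10 or more, through which it was tested, were 1 of day 2, 3 of day 4 and 2 of day 6.

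The main cytosolic J proteins were not called. Dnajb1, the stress-inducible HSP40, averaged 127 ± 9.14 normalized counts at day 2, 102 ± 10.2 at day 4 and 138 ± 9.96 at day 6, against 103 ± 17.7 in control cells, and Dnaja1 averaged 74.3 ± 6.44 normalized counts at day 2, 77.9 ± 18.8 at day 4 and 96.2 ± 6.35 at day 6, against 102 ± 18.7 in control cells. Of 18 tested DNAJC members, 12 were below and 6 above control cells at day 4, with a median change of -0.14, and 2 were called. Of all 8739 rows, 4421 were below and 4318 above, with a median change of -0.01, and 14.7% were called. Dnajc28 was low, averaging 7.45 ± 2.74 normalized counts at day 2, 15.6 ± 4.23 at day 4 and 5.39 ± 5.46 at day 6, against 5.81 ± 2.03 in control cells, and was not called. It was tested through 3 day 4 libraries and 1 day 6 library at 10 or more, so its change of -1.94 between day 6 and day 4 (adjusted p 0.1, and 0.0301 without day 6 replicate 2) is a description. Dnajc5, the vesicle protein known as cysteine string protein, changed by -0.60 at day 4 against day 2 (adjusted p 0.232, and 0.0373 without day 4 replicate 3). The J proteins not described so far, Dnaja2, Dnajb5, Dnajc2, Dnajc7, Dnajc8, Dnajc13, Dnajc15, Dnajc19, Dnajc21 and Dnajc27, were not called. Their changes at day 4 against control cells ran from -0.45 for Dnajc27 to 0.42 for Dnajc19. Dnajc9, which binds histones H3 and H4, averaged 50.8 ± 6.87 normalized counts at day 2, 68.9 ± 15.3 at day 4 and 82.6 ± 34.8 at day 6, against 54.4 ± 11.8 in control cells, with no call.

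CCT subunits were not called in any of the 5 comparisons. The complex has 8 subunits, all of which were tested, and limma gave 0 calls; 2 of 8 had an unadjusted p under 0.05 at day 4 against day 2, as had 2067 of all 8739 rows, and 0 of 8 in each other comparison. Since between 0.961% and 14.7% of all rows were called, 0 of 8 is not read as setting the subunits apart. The lowest adjusted p over the 5 comparisons was 0.109, for Cct3 at day 4 against day 2 (-0.42). Cct4 changed by 0.35 in that comparison, the other way (adjusted p 0.131). Against control cells, the day 4 changes ran from -0.44 for Cct8 to 0.20 for Cct4, with a median of -0.16; at day 2 the median was -0.04 and at day 6 it was also -0.04. Cct6a averaged 570.0 ± 46.4 normalized counts at day 2, 573 ± 41.5 at day 4 and 554 ± 68.7 at day 6, against 555 ± 12.7 in control cells. Tcp1, which encodes the alpha subunit, averaged 1311 ± 230 normalized counts at day 2, 1110.4 ± 390 at day 4 and 1128 ± 208 at day 6, against 1158 ± 179 in control cells, and the day 4 libraries held 841, 932 and 1558. Cct8 had 436, 478 and 547 normalized counts in TUNA hairpin cells at day 2, 262, 339.9 and 584 at day 4 and 413, 309.6 and 525 at day 6, against 685, 452 and 423 in control cells. Day 4 replicate 3 was the highest of its group for both genes, and the adjusted p of Cct8 at day 4 against control cells was 0.254 with that library and 0.0277 without it. That library was the highest of its group in 31 of 55 members and in 38.2% of all rows. Cct2, Cct5 and Cct7 changed by -0.17, -0.20 and -0.16 at day 4 against control cells.

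**Figure D3:**
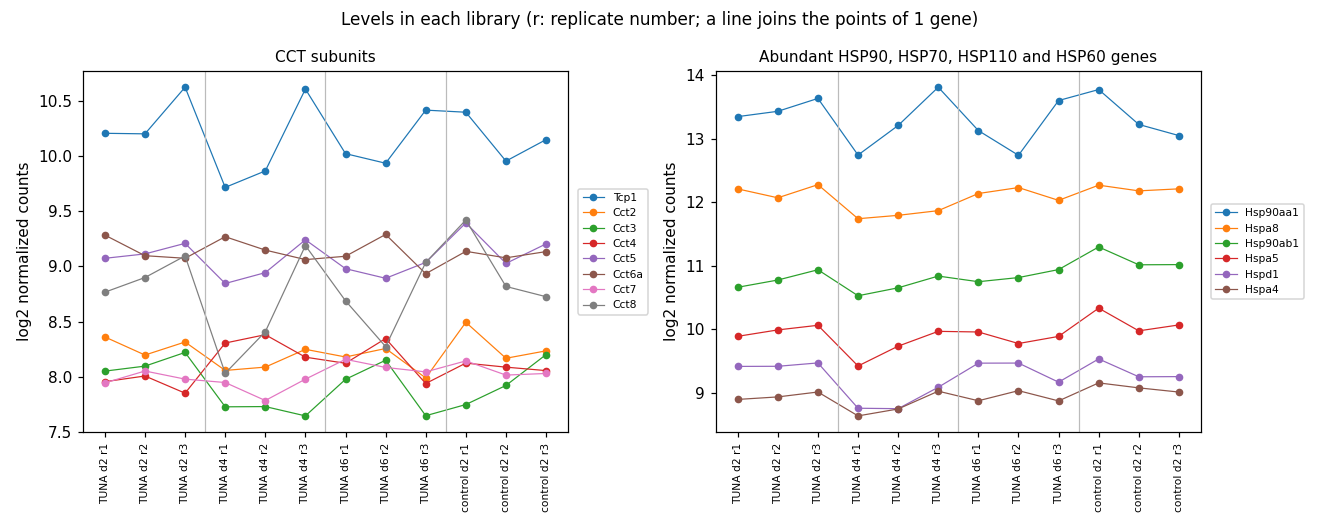
Log2 normalized counts in each of the 12 libraries for the 8 CCT subunits and for 6 abundant chaperone genes; each line joins the points of 1 gene and the vertical lines part the groups. Tcp1, Cct8 and Hsp90aa1 spread most within groups, and Hspa8 and Hspd1 are lowest in the day 4 libraries.

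No heat shock factor or small heat shock protein was called by limma. Hsf1 had 2.16, 6.25 and 6.90 normalized counts in TUNA hairpin cells at day 2, 11.2, 8.94 and 9.61 at day 4 and 16.5, 8.53 and 10.4 at day 6, against 4.26, 18.8 and 16.2 in control cells. Every hairpin group overlapped the control group, and the day 2 values were below all day 4 and day 6 values. The Hsf1 change was -1.10 at day 2 against control cells (adjusted p 0.389) and 0.94 at day 4 against day 2 (adjusted p 0.268). Hsf2 had 27.7, 56.0 and 38.2 normalized counts in TUNA hairpin cells at day 2, 79.0, 58.2 and 61.4 at day 4 and 46.7, 57.0 and 40.0 at day 6, against 43.1, 35.7 and 47.2 in control cells. All day 4 values of Hsf2 were above all others, yet neither the change against control cells (log2 change 0.64 ± 0.24, adjusted p 0.0824) nor that against day 2 (log2 change 0.73 ± 0.24, adjusted p 0.0709) passed; without day 2 replicate 2 the adjusted p against day 2 was 0.0316. Hspb1 encodes HSP27, which holds unfolded proteins and binds actin filaments. It had 49.8, 52.4 and 57.0 normalized counts in TUNA hairpin cells at day 2, 59.9, 37.6 and 33.0 at day 4 and 80.6, 90.2 and 55.7 at day 6, against 56.9, 62.5 and 76.1 in control cells, and the difference between day 6 and day 4 lay just above the threshold (log2 change 0.80 ± 0.23, adjusted p 0.0511). It passed without day 4 replicate 1 (0.0128) or day 6 replicate 3 (0.0198), with a filter of 20 normalized counts (0.0451) and with 10 added in place of 1 (0.046). Without day 4 replicate 1 the lower level at day 4 than in control cells also passed (0.0219, against 0.0852 with it). Hspb8, which acts with BAG3 in selective autophagy, averaged 6.97 ± 4.26 normalized counts at day 2, 9.56 ± 5.57 at day 4 and 15.8 ± 4.63 at day 6, against 8.45 ± 2.48 in control cells, with no call. The other small heat shock proteins, Hspb2, Hspb3, Hspb6, Hspb7, Hspb9 and Hspb11, reached at most 6.24 normalized counts in any library.

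Of the 32 genes under the filter, the highest in any library was Dnajc22 at 11.7 normalized counts. Dnajb9, an endoplasmic reticulum J protein induced by stress, lay between 2.91 and 10.4, and Hspbp1, an exchange factor for HSP70, between 1.90 and 8.45. Also under the filter were Dnaja4, Dnajb2, Dnajb3, Dnajb7, Dnajb13, Dnajb14, Dnajc4, Dnajc12, Dnajc16, Dnajc17, Dnajc24, Dnajc25, Dnajc30, Hspa1l, Hspa2, Hspa12a, Cct6b and Cct8l1. At 0 in all libraries were 6 of these genes (Dnajb8, Dnajc5b, Dnajc5g, Hspa12b, Hspb3 and Hspb7) and 14 of the 16 copies.

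Co-chaperones of HSP70 and HSP90 that the rule does not hold were read from a list of 28 genes, of which 23 were tested. At day 4 against control cells 5 fell (Ttc4, St13, Ahsa1, Unc45a and Chordc1) and 0 rose, where 7.76% of all rows fell and 6.99% rose. Of these, Unc45a was below the level of the low-value filter in every day 4 library, so its fall is a description. The median change was -0.23, against -0.01 for all rows, and the list was chosen with earlier results of these data known. At day 2 and at day 6 against control cells 1 fell, Ttc4, where 0.549% and 3.15% of all rows fell. Between day 4 and day 2, 3 were lower at day 4 (Ttc4, St13 and Ahsa1), where 4.38% of all rows were. Between day 6 and day 4, 2 were higher at day 6 (Ttc4 and St13), where 2.64% of all rows were. St13 encodes HIP, which steadies the ADP-bound state of HSP70. It had 284, 312 and 259.9 normalized counts in TUNA hairpin cells at day 2, 115, 133 and 133 at day 4 and 159.9, 346 and 269 at day 6, against 332, 325 and 306 in control cells. All day 4 values were below all others, and day 6 replicate 1 was the lowest of its group. St13 fell at day 4 against control cells (log2 change -1.33 ± 0.20, adjusted p 0.000376) and against day 2 (log2 change -1.16 ± 0.20, adjusted p 0.00215), and was higher at day 6 than at day 4 (log2 change 0.95 ± 0.20, adjusted p 0.0103). Each of these 3 calls was kept when any library was dropped (highest adjusted p 0.0456), but that of day 6 against day 4 was lost in a fit of those groups alone (0.0768).

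Ttc4 encodes an HSP90 co-chaperone. It had 52.3, 43.7 and 45.0 normalized counts in TUNA hairpin cells at day 2, 20.5, 27.2 and 34.8 at day 4 and 53.6, 50.3 and 51.3 at day 6, against 98.1, 90.6 and 109.8 in control cells, and every hairpin library was below every control library. Ttc4 fell at day 2 (log2 change -1.07 ± 0.20, adjusted p 0.0129), at day 4 (log2 change -1.84 ± 0.20, adjusted p 2.23e-05) and at day 6 (log2 change -0.93 ± 0.20, adjusted p 0.00889). The day 2 call was lost without day 2 replicate 2 or 3 or any 1 control replicate (highest adjusted p 0.0798), while the day 4 and day 6 calls were kept when any library was dropped. It was lower at day 4 than at day 2 (log2 change -0.78 ± 0.20, adjusted p 0.0235), a call lost without day 4 replicate 1 or 2 or any 1 day 2 replicate (highest adjusted p 0.105), and higher at day 6 than at day 4 (log2 change 0.92 ± 0.20, adjusted p 0.0109). The Ttc4 call between day 6 and day 4 was lost without day 6 replicate 1 (adjusted p 0.0513). Ahsa1, which stimulates the HSP90 ATPase, had 73.5, 63.9 and 62.8 normalized counts in TUNA hairpin cells at day 2, 41.7, 30.4 and 43.4 at day 4 and 61.2, 74.9 and 47.4 at day 6, against 54.7, 65.7 and 91.0 in control cells. It fell at day 4 against control cells (log2 change -0.84 ± 0.22, adjusted p 0.0172), a call lost without day 4 replicate 2 or control replicate 3 (highest adjusted p 0.0911), and was lower than at day 2 (log2 change -0.79 ± 0.22, adjusted p 0.0381). The Ahsa1 call against day 2 was lost without day 4 replicate 1 or 2 or any 1 day 2 replicate (highest adjusted p 0.162). Unc45a, a myosin chaperone, fell at day 4 (log2 change -1.66 ± 0.50, adjusted p 0.0336). The Unc45a call was lost without day 4 replicate 2 or control replicate 2 or 3 (highest adjusted p 0.157). Without day 4 replicate 3 it also passed as lower than at day 2 (0.0266). Chordc1, which binds HSP90, fell at day 4 (log2 change -1.04 ± 0.33, adjusted p 0.0449). Its day 4 libraries held 44.9, 81.1 and 159.4 normalized counts against 208.6, 177.4 and 138.8 in control cells, so the groups overlapped. The Chordc1 call was lost without day 4 replicate 1 or 2 or control replicate 1 or 2 (highest adjusted p 0.21). Without day 4 replicate 3, Chordc1 also passed at day 4 against day 2 (0.0175) and at day 6 against day 4 (0.0394). Prefoldin, which delivers actin and tubulin to CCT, and other CCT helpers gave 0 calls by limma among 7 tested genes in every comparison. Over all rows 0.961% to 14.7% were called. Of the 7, 2 had an unadjusted p under 0.05 at day 4 against control cells, as had 2614 of all 8739 rows. In each comparison between hairpin days 1 had, as had 2067 rows at day 4 against day 2 and 1811 at day 6 against day 4. At day 2 and day 6 against control cells 0 had, where 1072 and 1702 of all rows did.

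Folding genes of the endoplasmic reticulum outside the family had 4 falls and 1 rise at day 4 against control cells among 17 tested. Of all rows 7.76% fell and 6.99% rose. The median change was -0.31, against -0.01 for all rows. Against day 2, 3 were lower at day 4 (Calr, Hyou1 and Pdia3) and 1 was higher (Ero1l), where 4.38% and 3.27% of all rows were. Between day 6 and day 4, 1 was lower at day 6 (Ero1l), where 2.94% of all rows were. At day 6 against control cells 1 fell (Calr), where 3.15% of all rows did. At day 2 limma called 0, where 0.961% of all rows were called. An unadjusted p under 0.05 was reached there by 3 of the 17 and by 1072 of all 8739 rows. Calr encodes calreticulin, a lectin chaperone of glycoproteins. It had 387, 395 and 409 normalized counts in TUNA hairpin cells at day 2, 242, 274 and 247 at day 4 and 339, 377 and 291 at day 6, against 511, 495 and 456 in control cells. Calr fell at day 4 against control cells (log2 change -0.94 ± 0.13, adjusted p 0.00019) and against day 2 (log2 change -0.64 ± 0.13, adjusted p 0.00704), and both calls were kept when any library was dropped. It fell at day 6 (log2 change -0.54 ± 0.13, adjusted p 0.0185). The Calr call at day 6 was lost without day 6 replicate 1 or 3 or control replicate 1 or 2 (highest adjusted p 0.0801); without day 6 replicate 3 it also passed as higher at day 6 than at day 4 (0.0418). Hyou1, the HSP110 relative of this compartment, had 109, 135 and 115 normalized counts in TUNA hairpin cells at day 2, 61.2, 86.7 and 69.3 at day 4 and 96.9, 91.3 and 105 at day 6, against 165, 131 and 139 in control cells. It fell at day 4 against control cells (log2 change -0.998 ± 0.17, adjusted p 0.000785), a call kept when each of its 6 libraries was dropped in turn (highest adjusted p 0.0058), and against day 2 (log2 change -0.73 ± 0.17, adjusted p 0.0134). The Hyou1 call against day 2 was lost without day 4 replicate 1 or day 2 replicate 2 (highest adjusted p 0.0724). The disulfide isomerase Pdia3 fell at day 4 against control cells (log2 change -0.59 ± 0.15, adjusted p 0.0142), a call lost without day 4 replicate 1 or 2 or control replicate 1 (highest adjusted p 0.0772), and against day 2 (log2 change -0.56 ± 0.15, adjusted p 0.0338). The Pdia3 call against day 2 was lost without day 4 replicate 1 or 2 or any 1 day 2 replicate (highest adjusted p 0.138). Its relative Pdia4 fell against control cells (log2 change -0.55 ± 0.15, adjusted p 0.0201). The Pdia4 call was lost without day 4 replicate 2 or 3 or control replicate 1 or 3 (highest adjusted p 0.074). Ero1l, the oxidase that recharges disulfide isomerases, had 65.1, 88.2 and 48.4 normalized counts in TUNA hairpin cells at day 2, 128, 139 and 149.5 at day 4 and 48.1, 57.0 and 58.6 at day 6, against 62.5, 61.0 and 71.3 in control cells. Its day 4 libraries were above all others. Ero1l rose at day 4 against control cells (log2 change 1.09 ± 0.20, adjusted p 0.00132) and against day 2 (log2 change 1.07 ± 0.20, adjusted p 0.00298), and was lower at day 6 than at day 4 (log2 change -1.33 ± 0.20, adjusted p 0.000543); these calls were kept when any library was dropped.

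In mitochondria, 2 of 13 tested folding genes fell at day 4 against control cells, where 7.76% of all rows fell. The median change was -0.14, against -0.01 for all rows. Afg3l2, a protease of the inner membrane, had 60.5, 78.5 and 91.0 normalized counts in TUNA hairpin cells at day 2, 43.4, 47.4 and 86.7 at day 4 and 59.3, 37.2 and 119 at day 6, against 168, 112 and 112 in control cells, and it fell at day 4 (log2 change -1.17 ± 0.33, adjusted p 0.0248). Grpel1, the exchange factor of mortalin, had 460.3, 425 and 583 normalized counts in TUNA hairpin cells at day 2, 199, 305 and 382 at day 4 and 274, 226 and 407 at day 6, against 607, 428 and 421 in control cells, and it fell at day 4 (log2 change -0.74 ± 0.24, adjusted p 0.042). The Afg3l2 call was lost without day 4 replicate 1 or 2 or control replicate 1 (highest adjusted p 0.107), and the Grpel1 call was lost without day 4 replicate 1 or 2 or any 1 control replicate (highest adjusted p 0.187). Without day 6 replicate 3 both also passed at day 6 against control cells (0.00784 for Afg3l2 and 0.0236 for Grpel1). Grpel1 passed at day 4 against day 2 without day 4 replicate 3 (0.0182). With every library kept, it also passed there in a fit of those groups alone (0.0411) and with a replicate block (0.0452). In the other 4 comparisons limma called 0 of the 13, where 0.961% to 7.66% of all rows were called. Of the 13, an unadjusted p under 0.05 was reached by 3 at day 2 and 4 at day 6, and by 1072 and 1702 of all 8739 rows. It was reached by 1 between day 4 and day 2 and 0 between day 6 and day 4, and by 2067 and 1811 of all rows.

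**Figure D4:**
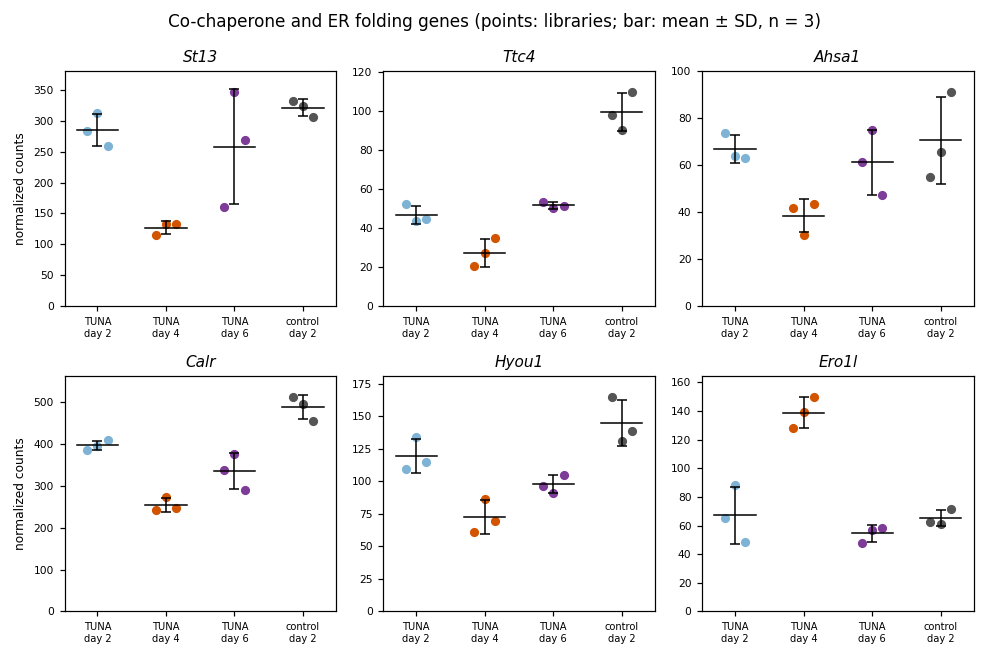
Normalized counts of 3 co-chaperone genes and 3 endoplasmic reticulum folding genes in each library (points) with the mean and SD of 3 libraries, by group. St13, Ttc4, Ahsa1, Calr and Hyou1 are lowest at day 4, and Ero1l is highest at day 4.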

How the data were processed

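Total RNA of 12 libraries was sequenced. The deposited table holds log2 normalized counts that the authors made; BWA, DESeq and the mouse build mm9 are named in the submitters' processing notes, with no version or role. A value of 0 stands for 1 normalized count or less. Many low values were not whole reads: per library, 44.3% to 57.3% lay within 0.02 of one. For that reason limma 3.58.1 in R 4.3.3 was used on log2(normalized count + 1) in place of a count test. All 12 libraries were fitted with 1 coefficient per group and an intensity trend (8 residual and 9.48 prior degrees of freedom), over the 8739 rows that reached 10 normalized counts in 3 or more libraries. Every adjusted p is from this fit, Benjamini-Hochberg adjusted within each of 5 comparisons at a threshold of 0.05. The added 1 makes the changes of low genes look smaller. The spacing of values gave the reads per library; outside the 3 dominant rows 936512 to 2024934 remained. Transcript lengths and small nucleolar RNA hosts came from GENCODE M21 on GRCm38, and promoters from RefSeq. Members and lists were chosen with earlier results of these data known. Values were given for fixed anchor genes, every called member and, in each partner list, the called genes with the smallest p (at most 4 per comparison), and further members were named after their values were seen. A tested member is not reported here, though it stays in every fit and count. Figures were drawn with matplotlib 3.10.9.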

Additional observations from a re-analysis of the deposited data

How the results depend on the processing

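Alternatives were another scaling (upper quartile, median of ratios), no filter or a filter of 20, a pseudocount of 0.5 or 10, rows without small nucleolar RNA hosts, only the 2 groups compared, a replicate block, and each library left out. Of 4624 gene values under them, 4433 kept their call or lack of one, 165 lost a call, 26 gained one and 0 called values changed sign, and the 70 medians of the members moved by less than the spread. At day 4 against control cells, 10 called members became 6 with no filter and 4 with only the 2 groups. With 1 library left out, the count against control cells was 0 to 0 for day 2, 2 to 6 for day 4 and 1 to 4 for day 6; it was 0 to 4 for day 4 against day 2, and 2 to 3 for day 6 against day 4. At day 6 against day 4, 5 called members became 2 with no filter and 1 with only the 2 groups; over all rows 92 were higher and 105 lower in that fit, against 231 and 257. At day 2 against control cells, all rows gave 25 higher and 27 lower with no filter, against 36 and 48. Upper quartile scaling made the day 4 split 4 higher and 6 lower, against 3 and 7. With a filter of 20 the split against control cells was 1 higher and 8 lower at day 4. For day 6 it was 0 higher and 2 lower, against 1 and 2. With only the 2 groups, the day 4 calls against control cells of Hspa4l, Dnaja3, Dnajc11, Dnajc18, Hspd1 and Hsp90ab1 were lost, as were the day 6 against day 4 calls of Dnajc6, Dnajc11, Dnajc18, Hspd1, Ttc4 and St13, those of Unc45a and Chordc1 at day 4 and Calr at day 6 against control cells, and that of Ttc4 at day 4 against day 2. Among these the highest adjusted p over all settings that keep every library was 0.16, for Dnajc6 at day 6 against day 4.

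Under the replicate block 0, 8 and 3 members were called at days 2, 4 and 6 against control cells, 2 at day 4 against day 2 and 2 at day 6 against day 4. The numbers were not taken to pair the libraries, since in no comparison did every same-numbered pair correlate above 0.1 (range -0.277 to 0.328); 2, 0, 0, 5 and 4 of 6 libraries correlated best with their own number in these 5 comparisons. The cause of these changes was not tested. How far depth limits the low genes was not tested.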
